A study of Mus musculus with 2 samples.

Results

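The 10 genes described here handle iron or set the level of hepcidin in the mouse liver: Hamp, Hamp2, Tfrc, Tfr2, Trf, Fth1, Slc40a1, Bmp6, Hfe and Alas1. They were chosen by name, and 9 of the 10 had at least 1 probe set annotated to that gene alone, out of 18193 genes named in this way on the array. Trf was read only by a probe set that also carries the symbol Srprb. Liver RNA of Ppara-null mice, which lack the nuclear receptor PPARα, was compared with liver RNA of wild-type mice. All mice were 8-week-old males of the 129SvEJ strain, and both genotypes ate chow with 0.2% fenofibrate, a lipid-lowering drug that activates PPARα, for 7 days. Each genotype was 1 RNA pool of 3 mice on 1 array, so the spread between mice was not measured, no difference could be tested, and the response to fenofibrate itself was not measured, since no liver without the drug is analysed here.

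Hepcidin, the peptide encoded by Hamp, is made mainly by hepatocytes and secreted into the blood. It binds ferroportin, the iron exporter encoded by Slc40a1, and causes its loss from the cell surface, which lowers the release of iron from macrophages, the gut and the liver. Hepatocytes raise Hamp transcription when BMP ligands from the liver endothelium signal through SMAD proteins, and when interleukin-6 signals through STAT3 in inflammation. Inside cells, iron regulatory proteins bind messages such as those of ferritin and transferrin receptor 1, so that storage and uptake follow the iron supply.

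Signals are the deposited intensities, scaled by the authors to a common target of 1000 on each array. The median signal of the array's probe sets that are not controls was used as a floor, 269.4 in the Ppara-null liver and 287.8 in the wild-type liver. A gene was represented by its brightest probe set and counted as measured when that probe set reached the floor on at least 1 array, which held for 13041 genes. Every ratio is Ppara-null over wild type on the log2 scale, and a 2-fold difference was called by size alone. Where only 1 array reached the floor, the other was set to its floor and the difference is given as a bound. Several probe sets of 1 gene differed in their log2 ratio with a pooled SD of 0.42. That SD describes disagreement between probe sets on the same arrays and holds no spread between mice, pools or hybridizations. The 3 probe sets of Ppara itself were lower in the Ppara-null liver, with log2 ratios between -1.48 and -0.98. All 18 hybridization control probe sets were brighter on the Ppara-null array, by a median log2 ratio of 0.38. Scaling the arrays to those controls lowers the ratio of a gene at or above the floor on both arrays by 0.38, so such a ratio between 0 and 0.38 turns negative under that choice. The floor of the Ppara-null array is scaled with it, so bounds with 1 array at its floor are lowered too. The bound of Smad7 went from 1.46 to 1.08 and that of Inhbb from -1.59 to -1.97. A bound that would then point away from the measured array is set to 0. In whole liver, fewer cells of a type and less RNA per cell cannot be told apart.

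Hamp differed little between the arrays, whereas the brighter probe set of its duplicate Hamp2 read close to 2-fold higher in the Ppara-null liver. Hamp read 105274 in the Ppara-null liver and 88690 in the wild-type liver at its brighter probe set, a log2 ratio of 0.25. The second Hamp probe set read 99214 in the Ppara-null liver and 84196 in the wild-type liver, a log2 ratio of 0.24. Both probe sets of Hamp therefore gave nearly the same small excess, and 29.5% of the 10060 genes at or above the floor on both arrays had a larger ratio. Scaled to the hybridization controls, Hamp's ratio was -0.13.

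Hamp2 encodes a second hepcidin-like peptide in the mouse. Its brighter probe set read 32112 in the Ppara-null liver and 16068 in the wild-type liver, which is 1.998-fold higher, just short of the 2-fold call. Only 2.24% of genes measured on both arrays had a larger ratio. The other Hamp2 probe set read 265 in the Ppara-null liver and 73.1 in the wild-type liver, below the floor on both arrays, so no fold is given for it. The log2 ratio of Hamp2 exceeded that of Hamp by 0.75, a gap that no common factor applied to an array can change. Hamp and Hamp2 are copies of 1 gene, and their transcripts were not compared here. The brighter Hamp2 probe set is of the design class whose probes may also match other transcripts, and the dim one is not. How the brighter signal divides between the copies is therefore uncertain. Hamp2 was at 1.09 after median centring, 1.03 after quantile scaling and 0.62 after scaling to the hybridization controls.

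The copies lie near each other on chromosome 7, with 1 other RefSeq entry between them. Both proximal promoters are shown because that of Hamp holds the elements through which BMP and STAT3 signals reach it. Sequences are from RefSeq (GRCm38.p6), 5′ to 3′ on the minus strand, and capitals mark exact motif matches. Hamp's stretch is chr7:30944033-30944172 and Hamp2's is chr7:30924182-30924321, each 140 bases long, and Hamp's ends 3 bases before its annotated start.
Hamp: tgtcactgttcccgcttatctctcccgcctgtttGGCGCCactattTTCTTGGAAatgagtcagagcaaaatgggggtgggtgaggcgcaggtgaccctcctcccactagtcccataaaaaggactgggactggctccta
Hamp2: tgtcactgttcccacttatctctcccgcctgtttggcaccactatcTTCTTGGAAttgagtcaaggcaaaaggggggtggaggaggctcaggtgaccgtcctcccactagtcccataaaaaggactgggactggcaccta
The stretches share 128 of 140 bases and differ by 12 substitutions, counted from 1 at the 5′ end with the Hamp base first. The capitals at positions 35 to 40 of Hamp spell GGCGCC, the BMP response element. The substitution G38A falls inside it, and the Hamp2 stretch holds no match there. The capitals at positions 47 to 55 spell TTCTTGGAA in both copies, a match to the STAT motif TTCNNNGAA.

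Motifs were searched on both strands in windows of 300 bases around the annotated starts, for 8 of the 10 genes with 13 windows. GGCGCC was found for 2 of the genes, Hamp and Tfrc, and in 11.9% of 32851 mouse promoter windows. TTCNNNGAA was found for Hamp, Hamp2 and Alas1, and in 8.30% of windows. The AGGTCA repeat with a spacer of 1 base, bound by PPAR with its partner RXR, was allowed up to 2 mismatches in 12 bases and was found in 3.86% of windows and for none of these 8 genes. These are matches of letters in the window searched, not measured binding sites.

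Transferrin carries iron in plasma and is secreted by hepatocytes. The probe set shared by Trf and Srprb read 164329 in the Ppara-null liver and 144057 in the wild-type liver, a log2 ratio of 0.19. Srprb encodes a subunit of the signal recognition particle receptor, and the share of each gene in this signal is not known, so it is not counted as a value of Trf.

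Transferrin receptor 1, encoded by Tfrc, brings transferrin-bound iron into cells, and its probe sets did not point one way. The brightest read 5395 in the Ppara-null liver and 4808 in the wild-type liver, a log2 ratio of 0.17. The second read 1179 in the Ppara-null liver and 1904 in the wild-type liver, a ratio of -0.69, or 1.61-fold lower. These opposite differences leave the direction of Tfrc unsettled. Another probe set reached the floor only in the wild-type liver, at 165.8 in the Ppara-null liver and 293.3 in the wild-type liver.

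The array also carries 3 control probe sets along the Tfrc transcript. The one near its 3′ end read 372.5 in the Ppara-null liver and 796.5 in the wild-type liver, a log2 ratio of -1.10, or 2.14-fold lower. That Ppara-null signal lay under 422.4, the brightest signal there of a Bacillus control, a transcript absent from mouse liver. The middle control read 226.5 in the Ppara-null liver and 347.5 in the wild-type liver, at least 1.29-fold lower, and the 5′ control lay below the floor on both arrays, at 267.3 in the Ppara-null liver and 248.7 in the wild-type liver. Of the 5 Tfrc probe sets that reached the floor on either array, 4 were thus lower in the Ppara-null liver and the brightest was higher. By the median over its probe sets without the controls, Tfrc had a ratio of -0.12.

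Transferrin receptor 2, encoded by Tfr2, is a hepatocyte and erythroid protein that reports transferrin saturation and upholds hepcidin output. Its probe sets read 18333 and 13094 in the Ppara-null liver, against 15984 and 11852 in the wild-type liver. The log2 ratios were 0.20 and 0.14, so both probe sets gave a small excess of the same sign.

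Ferritin stores iron, and Fth1 encodes its heavy chain, which oxidises the iron taken in. Fth1 read 132384 and 121278 in the Ppara-null liver, against 126340 and 113324 in the wild-type liver. Its log2 ratios were 0.07 and 0.10, so both probe sets gave almost equal signals on the arrays.

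Ferroportin, the target of hepcidin, was higher in the Ppara-null liver at both probe sets, by unequal amounts. Slc40a1 read 20342 in the Ppara-null liver and 14141 in the wild-type liver at the brighter probe set, a log2 ratio of 0.52, or 1.44-fold, and 12.6% of genes had a larger ratio. The other read 9238 in the Ppara-null liver and 8897 in the wild-type liver, a ratio of 0.05. The gap between them was 0.47 on the log2 scale. Kupffer cells, the liver macrophages, are rich in ferroportin, and 9 of 10 measured macrophage markers had a positive ratio, with a median of 0.53 and a summed signal of 27372 in the Ppara-null liver and 19441 in the wild-type liver. Their part in the Slc40a1 difference was not tested.

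Bmp6 is the BMP ligand that liver endothelial cells release as iron accumulates. Its probe set read 440.2 in the Ppara-null liver and 318.9 in the wild-type liver, a log2 ratio of 0.47, or 1.38-fold. Both signals were near the limit of detection: the brightest Bacillus control read 422.4 for Ppara-null and 316.5 for wild type. With so dim a signal, 15.4% of genes had a larger ratio. Of 12 endothelial markers 7 had a positive ratio, with a median of 0.10 and a summed signal of 27296 in the Ppara-null liver and 24855 in the wild-type liver, and their part in the Bmp6 difference was not tested. The largest ratios among those at or above the floor on both arrays were those of Kdr, Tek and Oit3, at 0.55, 0.44 and 0.40. Negative ratios were found for 5 of the 12, among them Pecam1, an endothelial adhesion molecule. Pecam1 was at least 2.36-fold lower, at 228 in the Ppara-null liver, below the floor, and 636.9 in the wild-type liver.

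Hfe encodes the membrane protein altered in the common form of haemochromatosis, which binds transferrin receptor 1 and supports hepcidin expression. It was the only one of the 9 genes with a negative ratio, -0.09, from 3537 in the Ppara-null liver and 3753 in the wild-type liver, and median centring turned it to 0.01. A dimmer probe set read 285.6 in the Ppara-null liver and 375.6 in the wild-type liver, a ratio of -0.40, with the Ppara-null signal under the brightest Bacillus control.

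Alas1 encodes the housekeeping form of 5-aminolevulinate synthase, the rate-limiting enzyme of haem synthesis in liver. It read 54477 and 4446 in the Ppara-null liver, against 53730 and 4045 in the wild-type liver. The log2 ratios were 0.02 and 0.14, and the brighter probe set was nearly equal on both arrays.

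**Figure D1:**
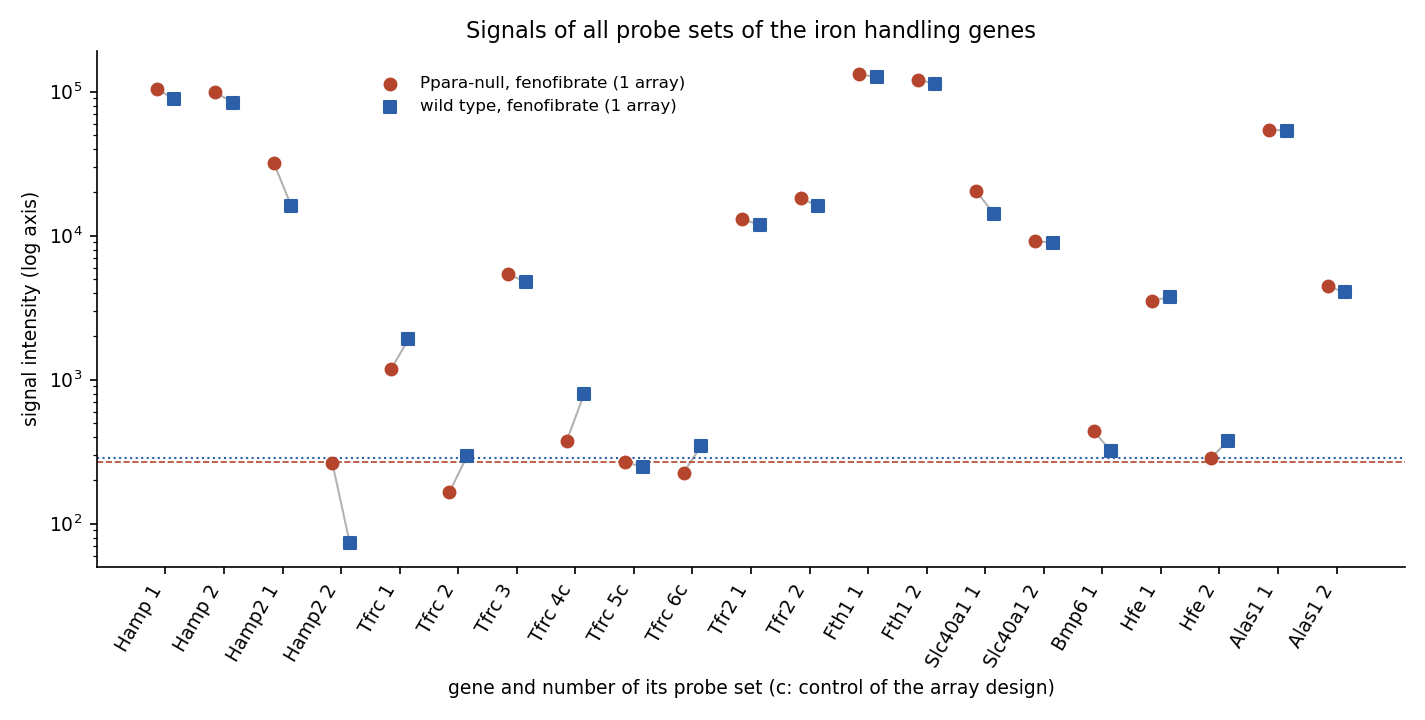
Signal intensity on a log axis for each probe set annotated to 1 of the iron handling genes, with circles for the Ppara-null array and squares for the wild-type array; dashed and dotted horizontal lines mark the floors, 269.4 for Ppara-null and 287.8 for wild type, and c marks control probe sets of the array design. Most pairs of symbols lie close together, and the brighter Hamp2 probe set stands apart with 32112 against 16068. Among the Tfrc probe sets that reached the floor on either array, the brightest is higher on the Ppara-null array and 4 are lower.

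Over the 9 genes, none was at least 2-fold lower and none at least 2-fold higher in the Ppara-null liver, and over the 13041 measured genes the share called lower was 4.99% and the share called higher 2.80%. Ratios were positive for 8 genes and negative for 1, with a median of 0.20, beside a median of 0 over all measured genes. Of the 17 probe sets of these genes that reached the floor on both arrays, Tfrc controls included, 13 were higher and 4 lower in the Ppara-null liver. The positive signs depended on the scaling: after scaling to the hybridization controls the median was -0.18, with 3 positive ratios (Hamp2, Slc40a1 and Bmp6) and 6 negative ones. The other scalings kept the signs of Hamp, Hamp2, Tfrc, Tfr2, Slc40a1 and Bmp6, while quantile scaling turned Fth1 to -0.13 and Alas1 to -0.01, and loess turned Alas1 to -0.02. The middle 90% of genes at or above the floor on both arrays lay between -0.88 and 0.78, and Hamp2 was the one listed gene outside that range. Hepatocyte markers had positive ratios at 8 of 8 measured genes, with a median of 0.31 and a summed signal of 1112710 in the Ppara-null liver and 926998 in the wild-type liver, and after scaling to the hybridization controls their median was -0.07. Their part in the small positive ratios of the iron genes was not tested.

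**Figure D2:**
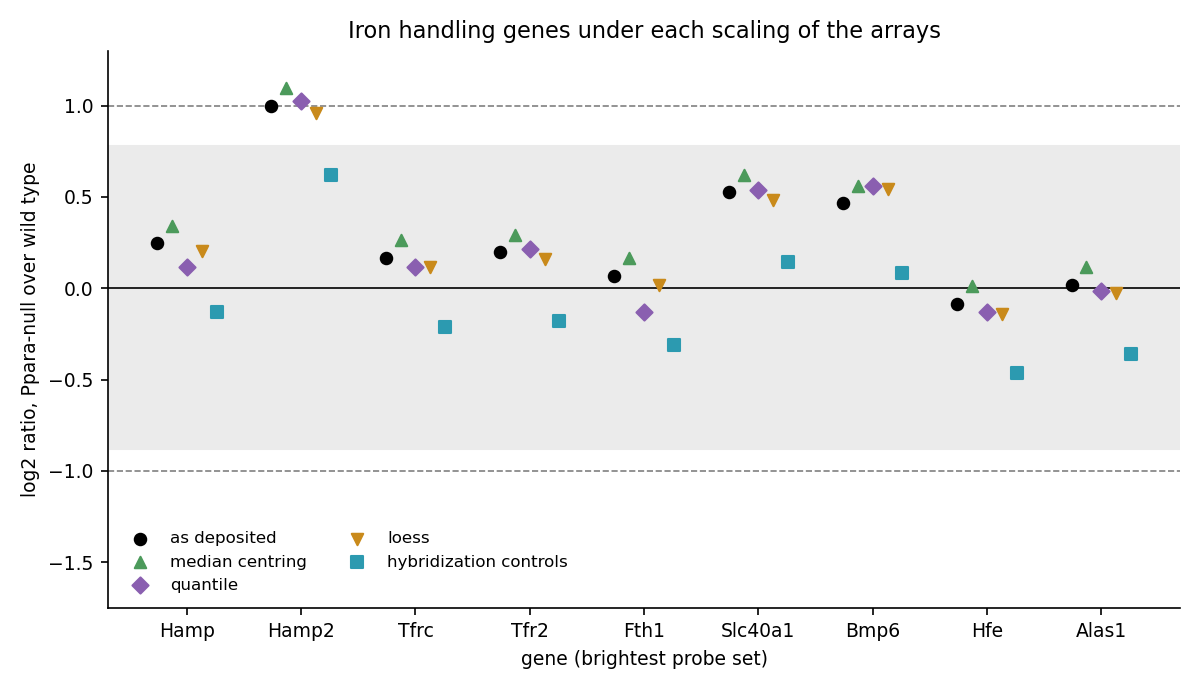
Log2 ratio of Ppara-null over wild type for the brightest probe set of each of the 9 genes, as deposited and under 4 other scalings; dashed lines mark 2-fold and the grey band the middle 90% of genes at or above the floor on both arrays, as deposited. Hamp2 lies at or near the 2-fold line except after scaling to the hybridization controls, at 0.62, and the squares for that scaling lie below 0 for 6 genes.

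Another 107 genes of iron and haem pathways were followed in 7 lists. Of these 94 were measured, and 4 were at least 2-fold lower and 3 at least 2-fold higher in the Ppara-null liver, which is close to the shares over all genes given above. Their median ratio was 0.07, with 53 positive and 40 negative. The share of these calls in the higher direction was 42.9%, and with so few calls each gene moves it. After median centring it was 57.1% (4 higher, 3 lower), and with hybridization control scaling 18.2% (2 higher, 9 lower). With the brightest Bacillus control as floor it was 60% (3 higher, 2 lower). Over all measured genes the same shares were 35.9% as deposited, 50% after median centring, 5.84% with hybridization control scaling and 50.5% with that floor. The 2-fold call held in 8 of 10 alternatives with a value for Inhbb, 7 of 9 for Ppox, 7 of 10 for Vhl and 9 of 10 for Hscb.

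In the BMP and SMAD list a ligand and an inhibitor were at least 2-fold higher in the Ppara-null liver, and the genes of the Id family did not share a direction. Bmp2, a BMP ligand of liver endothelium that also sustains hepcidin, read 2544 in the Ppara-null liver and 873.3 in the wild-type liver, or 2.91-fold higher, and stayed past 2-fold under all 10 alternatives that kept that threshold. The endothelial markers given beside Bmp6 apply here too, and their part was not tested. Smad7, an inhibitory SMAD that dampens hepcidin expression, read 790.5 in the Ppara-null liver and 211 in the wild-type liver, which was below the floor, so it was at least 2.75-fold higher. A second Smad7 probe set pointed the same way, at 500.8 in the Ppara-null liver and 229.9 in the wild-type liver.

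Id1 and Id3, inhibitors of DNA binding that BMP signalling induces in many cells, had lower signals, and Id2, a further member, a higher one. Id1 read 697 in the Ppara-null liver and 1279 in the wild-type liver, a log2 ratio of -0.88, and Id3 read 2144 in the Ppara-null liver and 3484 in the wild-type liver, a ratio of -0.70. Id2, picked after its value was seen, read 10198 in the Ppara-null liver and 6617 in the wild-type liver, a ratio of 0.62. None of the 3 reached 2-fold. Of the 19 measured genes of this list 11 were positive and 7 negative, with a median of 0.21. After scaling to the hybridization controls 9 were positive and 9 negative. Tmprss6, the liver protease that restrains hepcidin, read 28121 in the Ppara-null liver and 19983 in the wild-type liver, a ratio of 0.49, and Hjv, the BMP co-receptor hemojuvelin, had a ratio of -0.11. Both were picked after their values were seen.

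In the IL-6 and STAT3 list, 1 of 9 measured genes was called, and its median was 0.41. Inhbb, which encodes the subunit of activin B, read 151.9 in the Ppara-null liver and 813.7 in the wild-type liver, at least 3.02-fold lower, while its other probe set was below the floor on both arrays. Stat3, the factor that carries the interleukin-6 signal, read 4405 in the Ppara-null liver and 2750 in the wild-type liver, a ratio of 0.68. A second Stat3 probe set gave 0.43, and a dim one, at 126.1 in the Ppara-null liver and 538.8 in the wild-type liver, pointed the other way. Socs3, the STAT3-induced feedback inhibitor, had a ratio of -0.83, from 646.4 in the Ppara-null liver and 1150 in the wild-type liver. Creb3l3, a liver transcription factor released from the endoplasmic reticulum, had a ratio of -0.55, from 16417 in the Ppara-null liver and 24036 in the wild-type liver.

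None of the 17 measured genes of iron uptake, storage and export was called, and the list had a median of 0.19, which was -0.18 after scaling to the hybridization controls. Slc39a14, the ZIP14 transporter that takes up iron not bound to transferrin in hepatocytes, read 6743 in the Ppara-null liver and 3784 in the wild-type liver, a ratio of 0.83, and its other measured probe sets gave 0.46 and 0.22. Slc39a8, the related ZIP8 transporter, had a ratio of 0.73 at its brighter probe set and -0.11 at the other. Slc22a17, a receptor for lipocalin 2, had a ratio of 0.74, from 847.3 in the Ppara-null liver and 508 in the wild-type liver.

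Among 8 iron sensing genes Vhl, which marks hypoxia-inducible factors for breakdown, was 2.50-fold higher at its brighter probe set, with 1293 in the Ppara-null liver and 517.2 in the wild-type liver. Its other probe set pointed the opposite way, at 372.7 in the Ppara-null liver and 576.3 in the wild-type liver, so its direction is unsettled. Egln1, an iron-dependent prolyl hydroxylase of those factors, was likewise split, with 0.67 at the brighter probe set and -0.52 at the other. Fbxl5, an iron-sensing part of the ligase that removes iron regulatory protein 2, had a ratio of 0.50. Aco1 and Ireb2, the iron regulatory proteins themselves, had ratios of 0.15 and -0.05 and were picked after their values were seen.

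In haem synthesis 1 of 12 measured genes was called. Ppox, protoporphyrinogen oxidase, read 280.6 in the Ppara-null liver and 641.4 in the wild-type liver, 2.29-fold lower, but its 2 other probe sets reached the floor only in the Ppara-null liver. Cpox, the enzyme one step before it, was lower at both brighter probe sets, with ratios of -0.57 and -0.59. Alas2, the erythroid counterpart of Alas1, read 7033 in the Ppara-null liver and 4190 in the wild-type liver, a ratio of 0.75. Of 6 measured erythroid markers, Alas2 among them, 4 were positive, and without Alas2 the other 5 summed to 2777 in the Ppara-null liver and 2153 in the wild-type liver, with 3 positive and 2 negative ratios. Hba-a2 and Epb42 were below the floor on both arrays, and the part of red cell precursors or reticulocytes in the Alas2 difference was not tested.

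Among 14 genes of haem scavenging, transport and breakdown, Abcg2, an exporter of porphyrins and drugs, was 2.25-fold lower, with 11993 in the Ppara-null liver and 26983 in the wild-type liver, and stayed past 2-fold under all 10 alternatives that kept that threshold. Blvrb, biliverdin reductase B, read 7083 in the Ppara-null liver and 12850 in the wild-type liver, a ratio of -0.86. Cd163, the macrophage receptor for haemoglobin bound to haptoglobin, was 1.95-fold higher, with 1337 in the Ppara-null liver and 684.5 in the wild-type liver. The Kupffer cell markers Cd5l, Clec4f and Vsig4 had the largest ratios of their list on the same arrays, at 1.09, 0.70 and 0.63. The smallest positive ratio was 0.10, for C1qb. Cd68, the only negative one of the 10 measured, was at least 1.39-fold lower, with the Ppara-null signal below the floor. Marco was below the floor on both arrays, and the part of these cells in the Cd163 difference was not tested. Hmox1, haem oxygenase 1, read 770 in the Ppara-null liver and 814 in the wild-type liver and was picked after its value was seen.

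Mitochondrial iron and iron-sulfur cluster genes were centred near 0, with 7 positive and 8 negative of 15. Hscb, a co-chaperone of cluster transfer, read 1156 in the Ppara-null liver and 2400.2 in the wild-type liver, 2.08-fold lower. Lyrm4, a partner of the cysteine desulfurase Nfs1, had a ratio of 0.53, and Fdx1, a ferredoxin that donates electrons, had a ratio of 0.47. The median of this list was -0.38 after scaling to the hybridization controls.

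**Figure D3:**
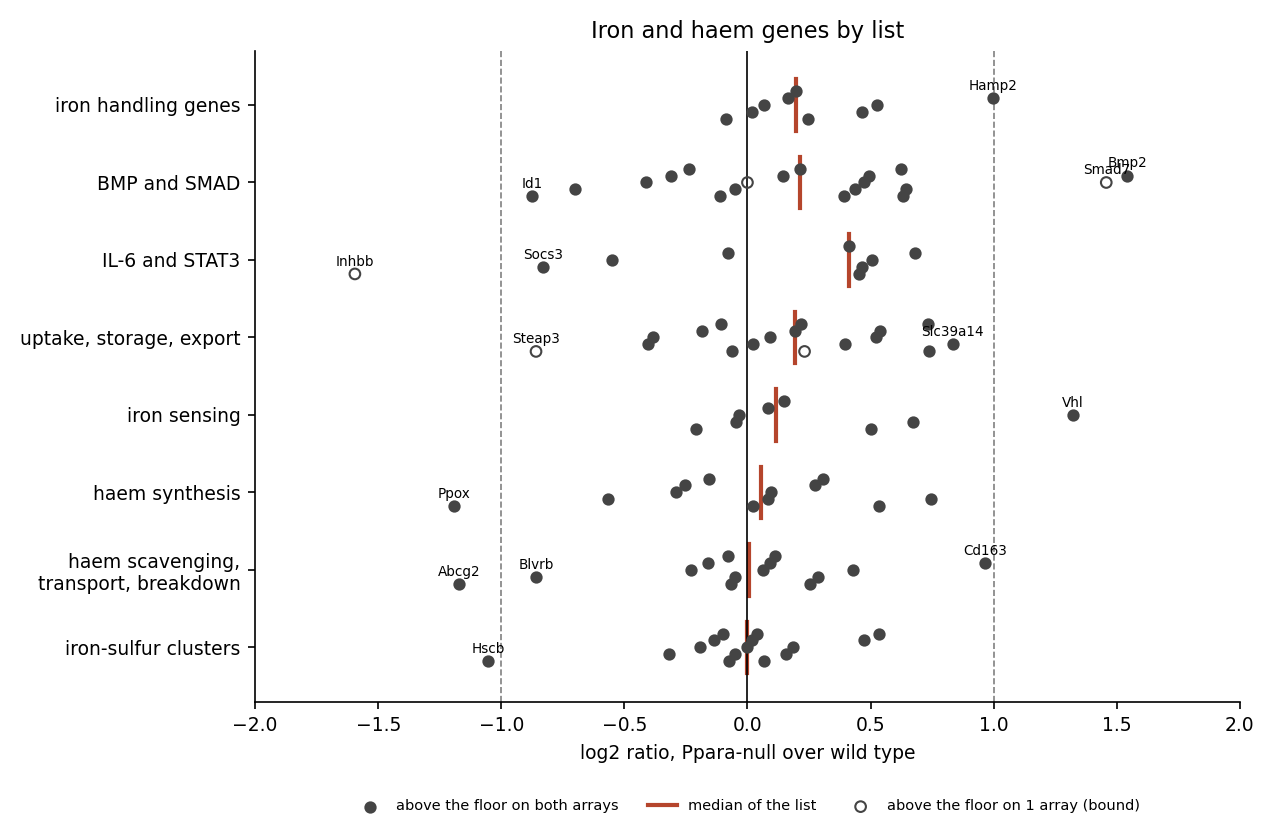
Log2 ratio of Ppara-null over wild type for the 9 iron handling genes (top row) and each measured gene of the 7 iron and haem lists. Each gene is 1 point, with list medians as vertical bars and 2-fold as dashed lines. Open symbols are bounds, for genes above the floor on 1 array only. The points crowd around 0, with 4 genes beyond 2-fold lower and 3 beyond 2-fold higher.

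Hepatocyte markers with a value, 8 in all, were at or above the floor on both arrays, as a liver label requires. Sums of signal below cover the measured markers of a list and are set only against the same list on the other array. Stellate cell markers were positive at 4 of 8 measured genes, with sums of 31311 in the Ppara-null liver and 26362 in the wild-type liver. Cholangiocyte markers summed to 1060.2 in the Ppara-null liver and 766.7 in the wild-type liver, and lymphocyte and neutrophil markers to 1038 in the Ppara-null liver and 1131 in the wild-type liver. Of these last 2 lists, 3 genes each were measured. Ptprc, the pan-leukocyte antigen CD45, was lower, at 363.5 in the Ppara-null liver and 822.8 in the wild-type liver, a log2 ratio of -1.18. That Ppara-null signal lay under the brightest Bacillus control, 422.4, and the other Ptprc probe set was below the floor on both arrays. The 2 other measured genes of the lymphocyte and neutrophil list had positive ratios. After scaling to the hybridization controls the macrophage list kept a positive median, 0.15, with 6 positive and 4 negative ratios.

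**Figure D4:**
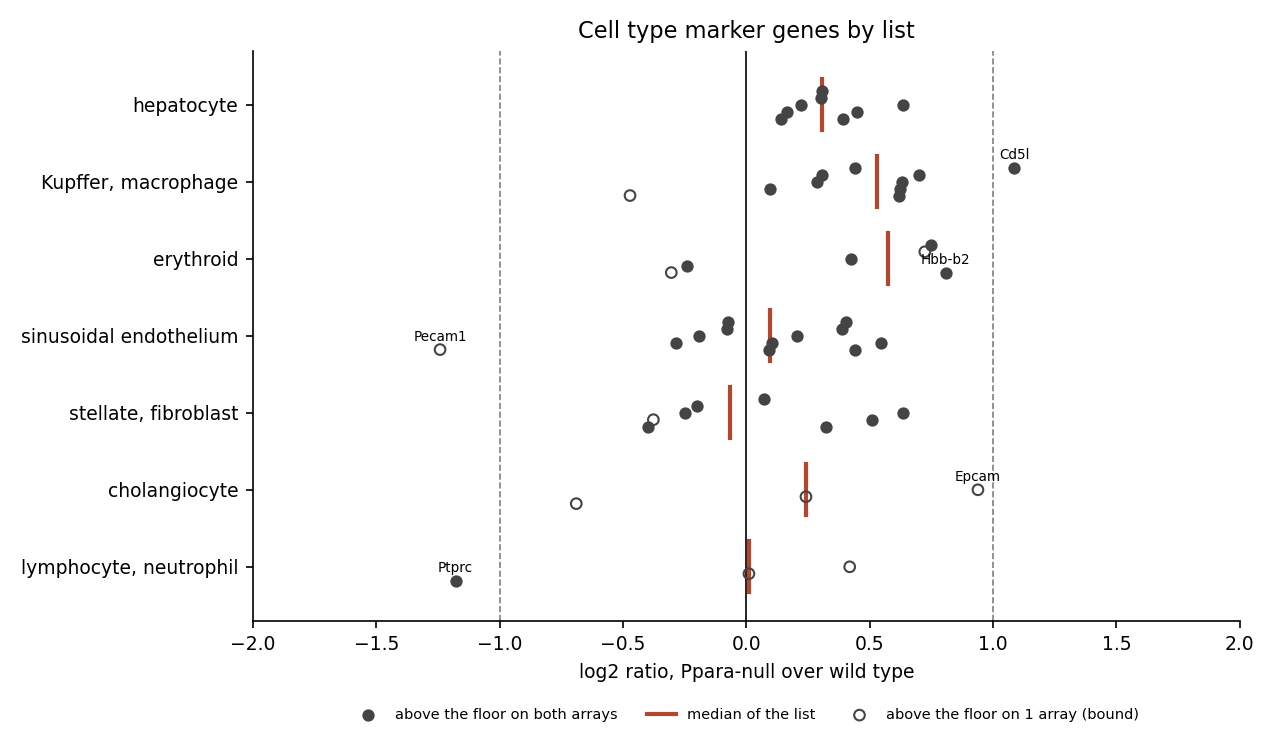
Log2 ratio of Ppara-null over wild type for each measured cell type marker, 1 point per gene, with list medians as vertical bars and 2-fold as dashed lines. Open symbols are bounds, for genes above the floor on 1 array only. Kupffer cell markers lie mostly above 0 with a median of 0.53, and all 8 hepatocyte markers lie above 0.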

How the data were processed

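Total liver RNA pools were hybridised to 1 Affymetrix mouse array per genotype. The deposited values are signal intensities from the Affymetrix statistical algorithm, scaled by the authors to a target of 1000, per the labels; the software version is not given in the sources used here. Both arrays carry the same scanner statistics in the labels, so their own scaling factors are not known. The array holds 45101 probe sets, of which 34945 had 1 gene symbol in the platform annotation of 2016.

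From these intensities log2 ratios of Ppara-null over wild type were computed with Python 3.11.15, pandas 2.3.3 and statsmodels 0.14.6. Signals were raised to each array's median over probe sets other than controls, and a gene took its brightest probe set by mean log2 signal. With 1 array per group there was no test; the number of arrays limits the precision. The steps were tested on simulated data. The genes and lists were chosen with earlier results of these data known. Named from each iron and haem list were genes at least 2-fold apart and the 3 with the largest absolute ratio at or above the floor on both arrays. Of the cell type markers only some that met this rule are named, beside a few that did not, picked after their values were seen. Alternatives were median centring, quantile, loess and hybridization control scaling, other floors and folds, the median over probe sets, and leaving out probe sets that may match several transcripts.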

Additional observations from a re-analysis of the deposited data

How the results depend on the processing

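No paired analysis was possible because each genotype has 1 array, and no replicate could be left out. The count of the 9 iron handling genes at least 2-fold higher, 0 as deposited, was 1 (Hamp2) after median centring, after quantile scaling and with a 1.5-fold threshold; Hamp2 had no value when probe sets that may match several transcripts were left out, and Bmp6 had none with the floor at the 75th percentile. Of the other iron and haem genes 4 were at least 2-fold lower as deposited. That count was 9 with hybridization control scaling, 7 with the floor at the 25th percentile or none, 2 with the floor at the 75th percentile or at the brightest Bacillus control, 9 with a 1.5-fold threshold and 1 with a 3-fold threshold. The count higher, 3 as deposited, came to 1 under the 75th percentile floor, 13 with a 1.5-fold threshold and 0 with a 3-fold threshold. Ppox changed sign, to 0.14, by the median over its probe sets. The lower and higher counts over all measured genes were 651 and 365 of 13041 as deposited. They were 507 and 507 after median centring and 1759 and 109 with hybridization control scaling, both of 13041. Other floors changed the number of measured genes. The counts were 2336 and 1650 of 16723 with the floor at the 25th percentile, and 157 and 98 of 7392 at the 75th. They were 3096 and 2177 of 18193 with none, and 297 and 303 of 11725 at the brightest Bacillus control. In that order of floors, the shares lower were 13.97%, 2.12%, 17.02% and 2.53%, and the shares higher 9.87%, 1.33%, 11.97% and 2.58%. Of the measured iron and haem genes, 7 of 99, 2 of 83, 7 of 99 and 2 of 92 were lower. Higher were 4 of 99, 1 of 83, 4 of 99 and 3 of 92. Dim signals limit Bmp6, the smaller Hamp2, Hfe and Tfrc probe sets, and Ppox.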
